A study of Mus musculus with 7 samples.

Results

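The genes described here are 9 mouse chromosome 2 genes from the surroundings of Adnp, the gene deleted in the study: Sdc4, Wfdc2, Trp53rka, Sulf2, Snai1, Pard6b, Dpm1, Dido1 and Ppdpf. They were measured by 12 of the 20380 array probe sets that carry 1 gene symbol each, and all 9 were among the 8019 genes bright enough to be tested. They were chosen by their knockout minus wild-type signal differences, which were known beforehand, so that difference is given for them as a description, with an interval, and nothing is read from how many of them passed its test. The comparison tested is where the heterozygous embryos lay. It is not free of that choice, because earlier results of these data were known. In all 9 genes the knockout pools also lay apart from the wild-type and heterozygous pools together.

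The study profiled whole C57BL/6 mouse embryos on embryonic day 9 that were wild type, heterozygous or homozygous for a constitutive deletion of Adnp, which the labels' genotyping scheme pairs with a neomycin resistance gene. RNA was hybridised to 2 wild-type, 3 heterozygous and 2 knockout Affymetrix arrays, each carrying a pool of 2 littermates of one genotype. The labels give the sex of the pools as mixed, name no other agent or allele, and state that yolk sac and amnion were dissected away. The number of pools limits the precision, and p-values measure only the spread between these pools.

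ADNP is a zinc finger and homeodomain protein that binds chromatin, and mouse embryos without it die before birth. A deletion made by gene targeting stays linked to the DNA around it, so genes on the same stretch of chromosome are inherited with the targeted allele more often than genes elsewhere. An embryo with a single deleted copy carries a single copy of that surrounding haplotype, which is why the heterozygous arrays bear on how the neighbours' signals relate to the number of deleted copies.

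In the RefSeq gene table, Pard6b and Dpm1 lie directly beside Adnp, one on each side, with 0 protein-coding genes between them and it. Moving away on the Pard6b side, 6 protein-coding genes separate Snai1 from Adnp, 21 separate Sulf2, 27 separate Trp53rka, 65 separate Wfdc2 and 70 separate Sdc4. On the Dpm1 side, Dido1 follows after 105 genes and Ppdpf after 117. The 9 genes therefore span a wide stretch of the chromosome's end rather than the immediate surroundings of the deletion, and the direction in which they differed was mixed: 5 had lower and 4 had higher knockout signals.

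Trp53rka has a near-identical copy, Trp53rkb, on the same chromosome, which bears on which transcript a probe set reads. The 250 bases before each transcription start are shown because the copies resemble each other there as well, and capitals mark their longest shared run, of 41 bases (RefSeq, GRCm38.p6, 5′ to 3′ in the direction of transcription). The Trp53rka stretch is chr2:165493315-165493564 on the minus strand, and the Trp53rkb stretch is chr2:166793517-166793766 on the plus strand.
Trp53rka: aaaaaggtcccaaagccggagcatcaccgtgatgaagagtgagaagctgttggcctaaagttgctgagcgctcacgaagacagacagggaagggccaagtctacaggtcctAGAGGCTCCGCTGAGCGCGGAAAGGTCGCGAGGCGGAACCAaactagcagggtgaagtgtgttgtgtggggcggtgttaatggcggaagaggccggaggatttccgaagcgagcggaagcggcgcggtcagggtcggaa
Trp53rkb: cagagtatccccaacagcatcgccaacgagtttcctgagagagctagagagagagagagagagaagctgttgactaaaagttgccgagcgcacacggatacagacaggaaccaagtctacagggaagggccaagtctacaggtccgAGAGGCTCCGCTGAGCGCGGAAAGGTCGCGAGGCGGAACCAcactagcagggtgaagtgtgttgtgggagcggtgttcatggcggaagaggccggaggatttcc
Of 210 aligned bases, 190 were identical (90.5%) and 20 differed.

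Trp53rka encodes a small atypical kinase of the KEOPS complex, which helps place the t6A modification on transfer RNAs and was also described as a kinase of p53. Its signal was 74.4 and 95 in wild type, 100, 51 and 105.3 in heterozygotes, and 12.8 and 6.9 in knockouts. The knockout pools lay far below all others, while the wild-type values fell inside the heterozygous range. Mean signals were 84.7 ± 14.6 (SD, n = 2) in wild type, 85.4 ± 29.9 (SD, n = 3) in heterozygotes and 9.85 ± 4.17 (SD, n = 2) in knockouts. The knockout minus wild-type difference was -2.72 on the log2(signal + 3.8) scale (SE 0.36, 95% interval -3.52 to -1.92), and 1 of the 8019 genes tested had a larger negative difference. Both knockout values are below the 38.1 used to call a probe set bright, so the size of the difference depends on the pseudocount, from -3.03 with a pseudocount of 1 to -1.96 with 16.

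A second probe set matched both Trp53rka and Trp53rkb, and a further one matched Trp53rkb alone. The shared probe set read 67.4 and 107 in wild type, 106.1, 78.9 and 101.1 in heterozygotes, and 35.9 and 53.8 in knockouts. Here too the knockout pools lay below every other pool, with a smaller difference of -0.89 (95% interval -1.51 to -0.27, adjusted p = 0.134 with limma over the 13576 probe sets past the filter). The probe set annotated to Trp53rkb alone read 30.5 and 57.1, then 18.6, 37.3 and 36.5, then 47.8 and 35.4, so that its genotypes overlapped (difference -0.02, 95% interval -0.89 to 0.85). Both probe sets that name Trp53rka thus had their lowest values in the knockout pools, whereas that of its copy did not separate the genotypes. Short probes can read near-identical transcripts together, so the split between the copies is uncertain.

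**Figure D1:**
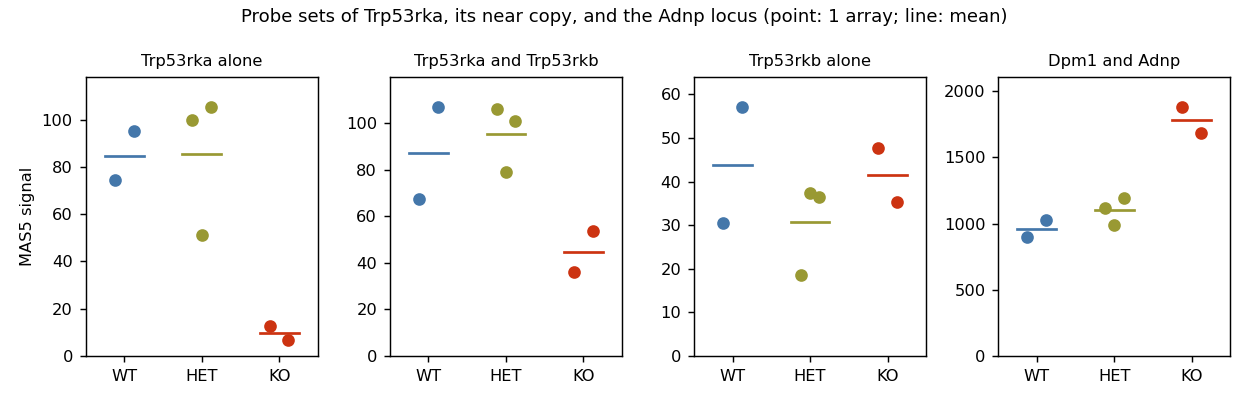
Signal of the probe sets related to Trp53rka and to Dpm1 on each of the 7 arrays, by genotype, each panel on its own linear axis from 0; points are arrays and lines genotype means. The shared Trp53rka and Trp53rkb probe set is lowest on both knockout arrays, and the one shared by Dpm1 and Adnp is highest on both.

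Snai1 encodes a zinc finger repressor that turns off E-cadherin as cells leave the epithelium at gastrulation and in the neural crest. Its signals were 139.9 and 161.5 in wild type, 156.5, 152.3 and 123.3 in heterozygotes, and 65.5 and 58.5 in knockouts. The knockout pools were the lowest, and the heterozygous and wild-type pools overlapped. The mean was 150.7 ± 15.3 (SD, n = 2) in wild type and 62 ± 4.95 (SD, n = 2) in knockouts, a difference of -1.23 (SE 0.18, 95% interval -1.62 to -0.84).

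Dido1 encodes a chromatin-binding protein with a PHD finger, studied in apoptosis and in stem cell differentiation. It read 230.7 and 217.4 in wild type, 252.1, 233.6 and 219.6 in heterozygotes, and 122.4 and 118.2 in knockouts. These were among the least scattered values of the set: the SD was 9.40 around 224.1 in wild type (n = 2) and 2.97 around 120.3 in knockouts (n = 2). The difference was -0.88 (95% interval -1.18 to -0.58), and only the knockout pools stood apart.

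Sulf2 edits and Sdc4 carries the same kind of cell-surface sugar chain, and the genes had opposite differences. Sulf2 encodes an extracellular enzyme that removes sulfate groups from heparan sulfate, and its signals were 529.9 and 702.6 in wild type, 543.2, 422 and 505.2 in heterozygotes, and 327 and 328.4 in knockouts. Its heterozygous mean, 490.1 ± 62.0 (SD, n = 3), lay between the wild-type mean of 616.3 ± 122 (SD, n = 2) and the knockout mean of 327.7 ± 0.99 (SD, n = 2), although wild-type pool 1, at 529.9, fell inside the heterozygous range. The knockout minus wild-type difference was -0.89 (95% interval -1.25 to -0.53).

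Sdc4 encodes syndecan-4, a transmembrane heparan sulfate proteoglycan of adhesion sites. It read 138.9 and 89.6 in wild type, 60.9, 112.3 and 100.2 in heterozygotes, and 259.1 and 308.1 in knockouts. The knockout pools were higher than all others, by 1.31 over wild type (95% interval 0.68 to 1.94), and the lowest pool was a heterozygous one. A second Sdc4 probe set, too dim to pass the filter, ranged from 14.3 to 57.1 and did not separate the genotypes (difference 0.07).

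Ppdpf, named as a factor of pancreatic progenitor differentiation and proliferation, read 388.9 and 480.6 in wild type, 475.3, 405.5 and 438.5 in heterozygotes, and 302 and 320.1 in knockouts. Its difference was the smallest of the lower genes, at -0.47 (95% interval -0.78 to -0.17), yet its knockout pools too lay below the other 5.

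The genes flanking Adnp had higher knockout signals. Pard6b encodes a Par6 adaptor that joins atypical protein kinase C and Cdc42 in setting up cell polarity. Its brighter probe set read 58.8 and 45.2 in wild type, 50.7, 52.9 and 54.6 in heterozygotes, and 85.4 and 106.9 in knockouts, a difference of 0.84 (95% interval 0.37 to 1.32). A second Pard6b probe set read 54.8 and 40.9, then 49.8, 53.7 and 54.8, then 97.6 and 80.7. The probe sets gave like differences, 0.84 and 0.85, and both placed the knockout pools above the rest.

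Dpm1 encodes the catalytic subunit of dolichol-phosphate mannose synthase, which supplies mannose for protein glycosylation and GPI anchors. Its brighter probe set read 107.3 and 111.2 in wild type, 120.5, 104.2 and 96.4 in heterozygotes, and 141.1 and 159 in knockouts, a difference of 0.44 (95% interval 0.08 to 0.81). A dimmer Dpm1 probe set, below the filter, read 40 and 31.8, then 27.8, 16.4 and 27.7, then 45.2 and 32. Its knockout and wild-type pools overlapped (difference 0.09), and its heterozygous pools lay below both, with a heterozygous minus wild-type difference of -0.54 where the brighter probe set gave -0.03.

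Wfdc2 encodes a secreted protein of epithelia with whey acidic protein domains. It read 128.8 and 98 in wild type, 94, 113.5 and 131.2 in heterozygotes, and 184.7 and 167.9 in knockouts, a difference of 0.63 (95% interval 0.19 to 1.07).

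In all 9 genes the brighter probe set placed both knockout pools outside the range of the other 5 pools, a pattern that 30.7% of all tested genes also had (14.2% higher and 16.5% lower). At a limma adjusted p under 0.05, 5 of the 9 passed between knockout and wild type, Trp53rka, Snai1, Sulf2 and Dido1 lower and Sdc4 higher, beside 3.32% of all genes (1.96% higher and 1.36% lower). Pard6b, Dpm1, Wfdc2 and Ppdpf did not pass. Since these values were in view when the genes were chosen, nothing is read from that count. Sdc4 missed the threshold without the filter, with the mean of its probe sets and without heterozygous pool 3. Both Sdc4 and Sulf2 missed it without limma's intensity trend and with the replicate number as a block. Without knockout pool 2, 0 of the 9 passed, and without wild-type pool 2 only Trp53rka did, the lone pool of a genotype then being assumed to vary like the others. In whole-embryo RNA, fewer cells of a type and less RNA per cell cannot be told apart.

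**Figure D2:**
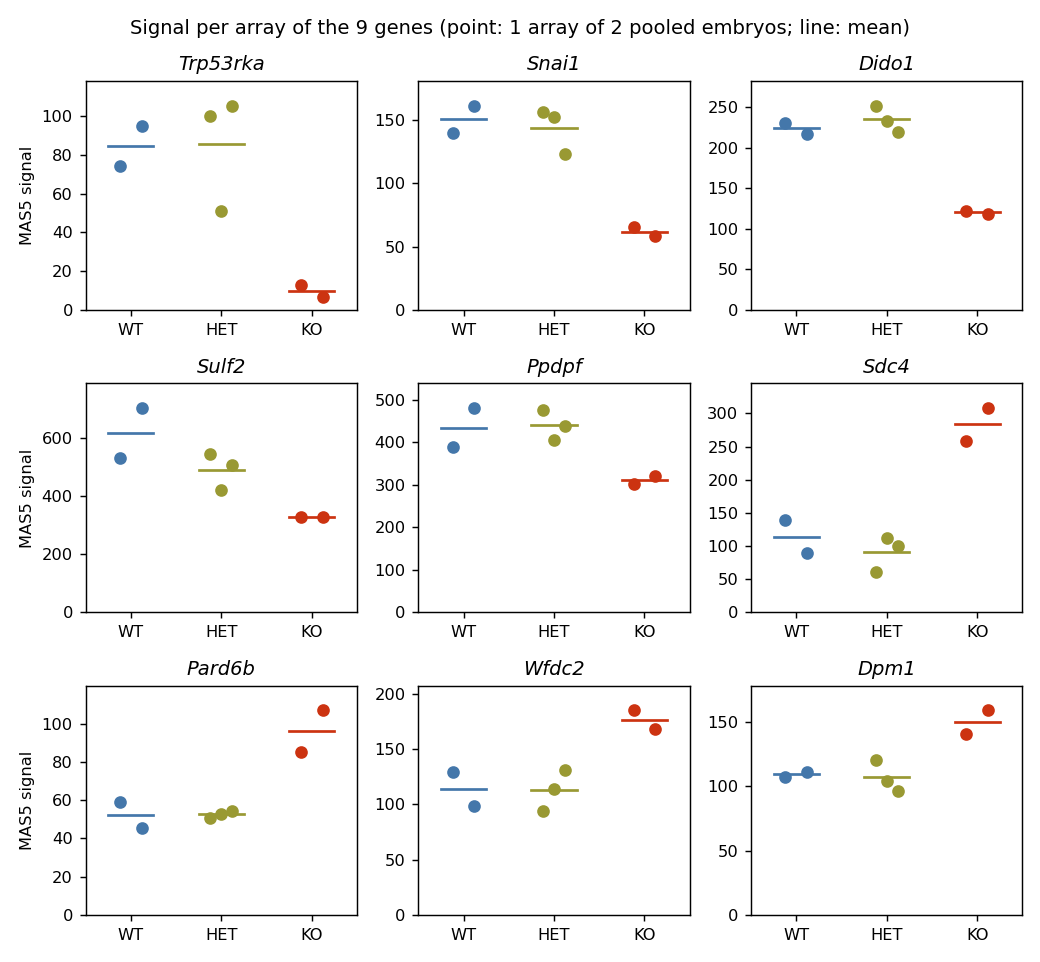
Signal of each of the 9 genes on the 7 arrays, by genotype, each panel on its own linear axis from 0; points are arrays and lines are genotype means. In each panel both knockout arrays lie outside the range of the other 5, below it for Trp53rka, Snai1, Sulf2, Dido1 and Ppdpf and above it for the rest.

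No difference between heterozygous and wild-type embryos was detected in these genes. Between heterozygous and wild-type pools, 0 of the 9 passed, beside 0% of all 8019 genes (limma; 284 genes had an unadjusted p under 0.05). On the brightest probe set of each gene the pools of these genotypes overlapped for all 9, whereas 17.4% of all genes had no overlap. On the dimmer Dpm1 probe set they did not overlap. For 7 of the genes the heterozygous minus wild-type difference lay between -0.07 and 0.07 on the log2 scale. The exceptions were Sdc4 at -0.33 (95% interval -0.90 to 0.25) and Sulf2 at -0.32 (95% interval -0.65 to 0.003). With single arrays left out these ran from -0.63 to -0.02 for Sdc4 and from -0.52 to -0.12 for Sulf2. Heterozygous and wild-type pools also differed in the signal of Y-linked genes given further on, and with a Y-linked score in the fit the difference became 2.49 for Trp53rka, -1.54 for Sdc4 and 0.50 for Sulf2, none past the threshold. Genotype and Y-linked signal can hardly be told apart in this comparison.

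The width of these intervals shows what the arrays could resolve. For Trp53rka the heterozygous minus wild-type difference was -0.04, with a 95% interval of -0.78 to 0.69, wide because heterozygous pool 2 read 51 against 100 and 105.3 in the other two. The intervals were narrower for Dido1, 0.07 (-0.21 to 0.34), for Ppdpf, 0.02 (-0.26 to 0.30), and for Snai1, -0.07 (-0.43 to 0.29).

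Knockout and heterozygous pools differed in 7 of the 9 genes, beside 5.86% of all genes (3.11% higher and 2.76% lower). This comparison uses the same knockout arrays as the one with wild type, so it is no separate evidence for the genes' choice. Trp53rka (-2.68), Snai1 (-1.16), Dido1 (-0.94), Sulf2 (-0.57) and Ppdpf (-0.49) were lower and Sdc4 (1.64) and Pard6b (0.81) were higher in knockouts, whereas Wfdc2 (0.64) and Dpm1 (0.48) did not pass. Leaving out knockout pool 2 left 2 of the 9, Trp53rka and Dido1, and leaving out heterozygous pool 1 or pool 3 left 4 each.

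The question of dose was put as the departure of the heterozygous mean from the midpoint between wild type and knockout. A value of 0 means that a single deleted copy gave the average of the other genotypes on the log2 scale. Their average on the linear signal scale lies above that midpoint, most where they differ most. A positive departure, as for Trp53rka, is therefore partly a matter of scale. As an estimate, the departure is uncorrelated with the knockout minus wild-type difference by which the genes were noticed. Its test is not independent of that choice, because both tests use the same estimate of each gene's spread. The genes were also chosen with earlier results of all genotypes known, so the side on which the heterozygotes lay is a description. No member passed after adjustment over all genes (0 of 9), beside 0.262% of all genes (21 of 8019, limma). The departure nearest to passing was that of Dido1, 0.51 (SE 0.10, 95% interval 0.28 to 0.73, limma adjusted p = 0.0832), followed by Trp53rka, 1.32 (SE 0.28, 95% interval 0.71 to 1.93, adjusted p = 0.0897).

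Sdc4 departed by -0.98 (95% interval -1.46 to -0.50, limma adjusted p = 0.107) and Snai1 by 0.55 (95% interval 0.25 to 0.85, adjusted p = 0.136). Ppdpf (0.26, 95% interval 0.02 to 0.49, adjusted p = 0.352) and Pard6b (-0.39, 95% interval -0.76 to -0.03, adjusted p = 0.362) followed. For Wfdc2 (-0.32), Dpm1 (-0.26) and Sulf2 (0.12) the intervals held 0, with limma adjusted p of 0.413, 0.437 and 0.72. In each of the 9 genes the departure pointed toward the wild-type side. With the visceral endoderm score described further on in the fit, it turned for Sulf2 (-0.28), Ppdpf (-0.02) and Wfdc2 (0.03), was 0.67 for Trp53rka, -0.21 for Sdc4 and 0.50 for Dido1, and passed for none.

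Before adjustment, the 95% interval of the departure left out 0 in 6 of the 9 genes (66.7%), as it did in 12.6% of all 8019 genes and in 68.4% of the 266 genes that passed between knockout and wild type. The heterozygous mean was nearer to wild type than to knockout in 9 of 9 genes, in 257 of those 266 genes (96.6%) and in 5440 of all genes (67.8%). Heterozygous signals close to wild type were thus common among the genes that passed anywhere in the genome, and the shares in these chromosome 2 genes were near theirs. One pool decided the call of the gene with the widest spread: without heterozygous pool 2, Trp53rka departed by 1.64 with a limma adjusted p of 0.0379.

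**Figure D3:**
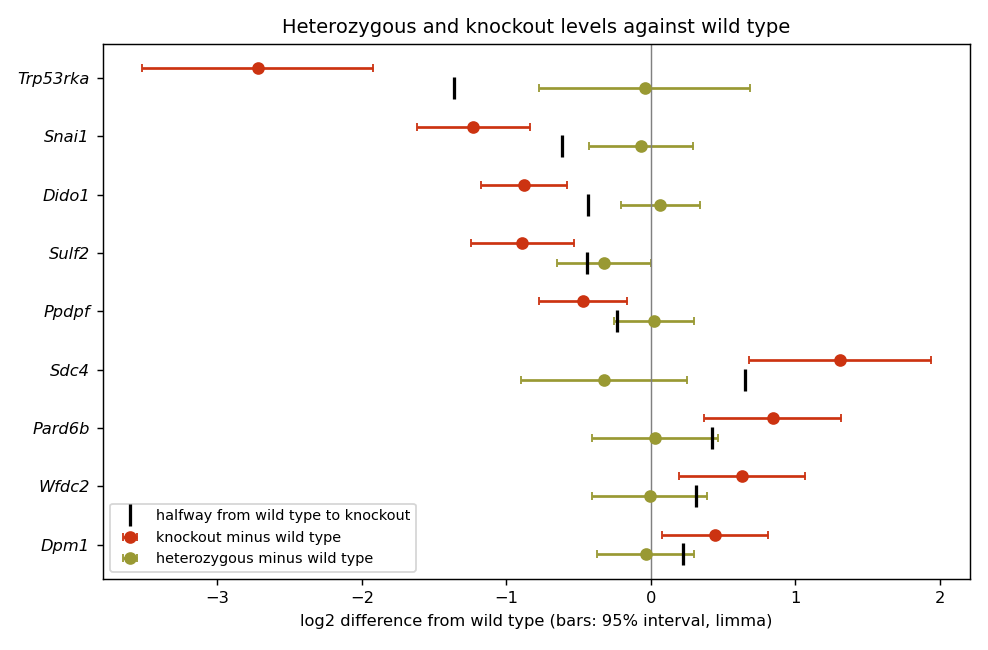
Difference from the wild-type mean, on the log2(signal + 3.8) scale, of the heterozygous and knockout means of each gene, with 95% intervals from the limma fit; black ticks mark the midpoint between wild type and knockout. The heterozygous means lie near 0 except for Sulf2 (-0.32) and Sdc4 (-0.33), while the knockout means run from -2.72 for Trp53rka to 1.31 for Sdc4.

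The surroundings of Adnp were then described as a whole, with the 40 tested genes nearest to it on each side. Of these 80 genes 8 passed between knockout and wild type (10%), 4 higher and 4 lower, beside 3.32% of all genes. Of these 8, Trp53rka, Snai1, Sulf2, Dido1 and Sdc4 are genes already described, chosen with their values in view. The 80 were chosen by position alone, and 4.03% of the 595 tested chromosome 2 genes farther away passed. Among the 72 neighbours that are not among the 9 genes, 3 passed (4.17%). That share was lowered by taking out genes chosen by their differences, so it cannot be compared with the 4.03%. The median absolute difference was 0.189 in the 80 neighbours and 0.192 over all genes, so the typical neighbour differed no more than the typical gene.

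The 3 further genes were all higher in knockouts. Ctsa and Ctsz, lysosomal proteases, read 109.8 ± 7.85 and 349.1 ± 76.6 (SD, n = 2) in wild type against 208.8 ± 0.64 and 731.4 ± 172 (SD, n = 2) in knockouts, differences of 0.91 and 1.06. Tcfl5, a transcription factor known from spermatogenesis, read 36.7 ± 16.8 (SD, n = 2) in wild type and 244.8 ± 48.9 (SD, n = 2) in knockouts, a difference of 2.67 (limma adjusted p = 0.0024). Tcfl5 passed with each pool left out in turn. Ctsa missed the threshold without either wild-type or either knockout pool (adjusted p 0.0782 to 0.237), and Ctsz without wild-type pool 2 or knockout pool 2 (0.154 and 0.155). With the replicate number as a block Ctsa (adjusted p 0.0533) and Ctsz (0.0718) missed it too. With the visceral endoderm score in the fit the differences were 1.56 for Tcfl5, 0.49 for Ctsz and 0.91 for Ctsa, and with the Y-linked score 2.59, 0.39 and 0.10, none past the threshold.

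Closeness to Adnp was not matched by a graded difference. The next tested genes beyond Pard6b and Dpm1 were Ptpn1, a tyrosine phosphatase, at -0.25, and Nfatc2, a transcription factor of immune cells, at -0.03, and neither passed. In runs of 25 tested genes along the chromosome, 16% passed in the run just before Adnp and 4% in the run just after it. Over all genes 3.32% passed. The genes that passed in the run just before Adnp were Ctsa and the already described Trp53rka, Sulf2 and Snai1. Those already described were chosen with their differences in view, so nothing is read from that share. Another run on the same side, 376 to 400 tested genes away, also held 16%.

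**Figure D4:**
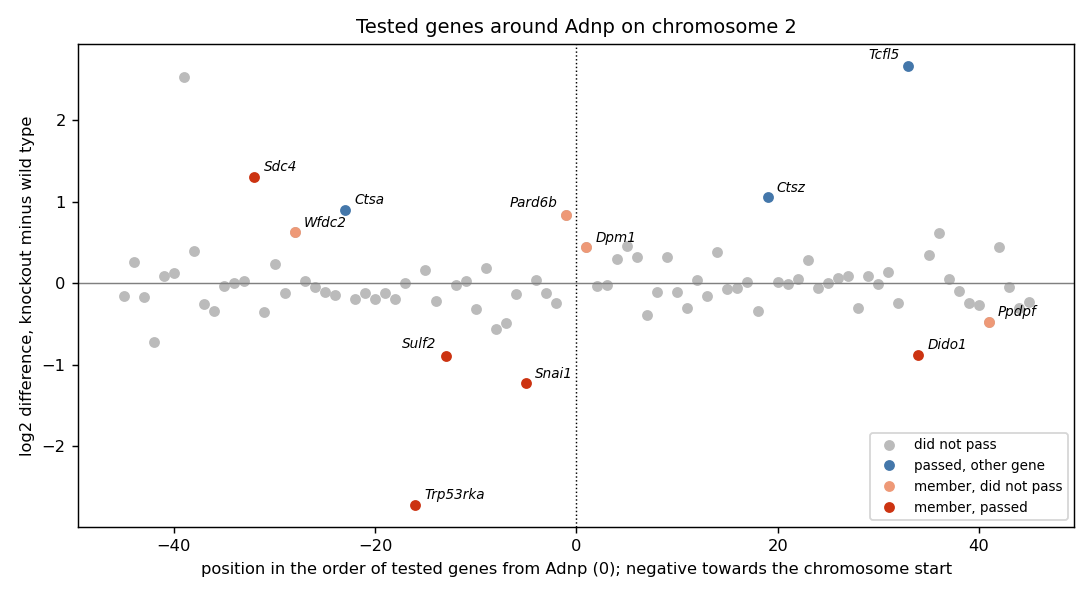
Knockout minus wild-type difference on the log2(signal + 3.8) scale of the tested chromosome 2 genes nearest to Adnp against their order from Adnp, counted in tested genes. Colours separate the 9 genes from others and those that passed from those that did not, and within this window around Adnp Trp53rka (-2.72) and Tcfl5 (2.67) lie farthest from 0 in opposite directions.

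The other genes of each pathway, taken from lists around each gene's known role, gave a frame for the single genes. In the list for the t6A modification and the KEOPS complex 6 of 8 genes were tested, and 1 passed, Trp53rka, a call fixed by the choice of that gene. The remaining members with the largest differences, none past the threshold, were Yrdc (-0.60) and the KEOPS subunits Tprkb (0.37) and Lage3 (-0.24). The list median was -0.13, beside -0.015 over all genes.

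In the list for dolichol-phosphate mannose and N-glycan assembly 14 of 17 genes were tested and 0 passed (limma; 2 had an unadjusted p under 0.05), with a median of -0.04; Dpm1 (0.44), Alg5 (0.41) and Dpagt1 (-0.34) had the largest values. All 9 genes of the Par polarity list were tested and 0 passed (limma; 4 had an unadjusted p under 0.05), with a median of 0.13; Pard6b (0.84), Llgl2 (0.61) and Prkci (0.36) led. In the heparan sulfate list 15 of 18 were tested, and the calls were again those of chosen genes, Sdc4 as higher and Sulf2 as lower. Its median was 0.04, and Gpc3 (0.54), Hs6st1 (-0.32) and Sdc2 (0.28) did not pass.

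The list around Snai1 and the epithelial-mesenchymal transition held calls beyond the gene chosen: of 10 tested genes 1 passed as higher and 3 as lower in knockouts. Apart from Snai1 itself, 3 of 9 passed, beside 3.32% of all genes. Epcam, an epithelial adhesion molecule, rose (0.72, limma adjusted p = 0.0271). Twist1, a mesenchymal transcription factor (-0.95, adjusted p = 0.00657), and Vim, the mesenchymal intermediate filament (-0.71, adjusted p = 0.0379), fell. Cdh1, which encodes E-cadherin (1.36), Twist2 (-0.48) and Snai2 (-0.45) did not pass, and the list median was -0.39. Without wild-type pool 2 the differences were -0.89 for Twist1, 0.67 for Epcam and -0.45 for Vim. They were -0.95, 0.89 and -0.81 without knockout pool 2, and -0.94, 0.54 and -0.62 without knockout pool 1. Each of these fits leaves 1 pool in a genotype, so whether the calls depend on a given pool cannot be settled. With the replicate number as a block, Epcam (limma adjusted p 0.0956) and Vim (0.107) missed the threshold. They also missed it without limma's intensity trend (0.0606 and 0.11), and Vim did without the filter (0.085) and with quantile normalization (0.0585). Twist1 passed with the block (0.0407) and without the trend (0.0286). The markers of visceral endoderm described further on were higher in the same pools, and with their score in the fit 0 of the 10 passed, the differences being -0.08 for Vim, -0.63 for Twist1 and 0.58 for Epcam. With the Y-linked score 0 passed as well (-0.28, -0.87 and 0.93). The part of either signal in these calls was not tested beyond this.

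The promoters of Snai1 and Pard6b, the polarity gene beside Adnp, are shown because Snail proteins bind the E-box CAGGTG, which reads CACCTG on the other strand and is set in capitals (RefSeq, GRCm38.p6, 5′ to 3′ in the direction of transcription, the 250 bases before the start). The Snai1 stretch is chr2:167537945-167538194 and the Pard6b stretch chr2:168080754-168081003, both on the plus strand.
Snai1: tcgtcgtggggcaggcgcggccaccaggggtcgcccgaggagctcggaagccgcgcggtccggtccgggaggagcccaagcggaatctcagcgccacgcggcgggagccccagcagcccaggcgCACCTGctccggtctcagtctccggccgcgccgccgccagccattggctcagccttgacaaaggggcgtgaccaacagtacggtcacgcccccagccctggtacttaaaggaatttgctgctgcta
Pard6b: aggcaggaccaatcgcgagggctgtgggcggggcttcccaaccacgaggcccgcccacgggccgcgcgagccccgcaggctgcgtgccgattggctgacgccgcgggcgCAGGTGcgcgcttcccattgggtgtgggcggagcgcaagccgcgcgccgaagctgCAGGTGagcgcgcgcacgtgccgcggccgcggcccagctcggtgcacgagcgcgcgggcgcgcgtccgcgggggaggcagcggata
The motif occurred 1 time in the Snai1 stretch and 2 times in that of Pard6b. Over the 9 genes, 6 of 14 annotated promoters held at least 1 copy (Snai1, Pard6b, 1 of Sulf2, 1 of Dido1 and both overlapping ones of Wfdc2), against 5657 of 32851 promoters of this length (17.2%). The Wfdc2 promoters are almost the same stretch counted again, and the comparison was not matched for base content. CG counts ran from 2 for a Dido1 promoter to 43 for Pard6b, with a median of 6 over all promoters. No excess is therefore read from these shares, and a match describes the letters only.

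Markers of visceral endoderm, the yolk sac epithelium that dissection was to remove, moved with the knockout genotype. Of 16 listed markers 14 were tested, and 9 rose and 0 fell in knockouts, beside 3.32% of all genes. The count was 2 without knockout pool 2, and 5 without knockout pool 1, without wild-type pool 2 or with the replicate block. In the fit to all arrays the 14 differences were above 0, with a median of 2.89. The summed signal of 15 markers was 3199.6 and 844.5 in wild type, 893.8, 2036 and 1167.8 in heterozygotes, and 11217.1 and 13387.8 in knockouts. In wild-type and heterozygous pools it varied too: Ttr, which encodes transthyretin, read 665.5 in wild-type pool 1, 60.8 in wild-type pool 2 and 44.7 in heterozygous pool 1. Ppdpf ran in the opposite order to the summed markers over the 5 wild-type and heterozygous pools, from 388.9 in the pool with the most marker signal to 480.6 in the pool with the least. Sdc4 was highest among those 5 (138.9) in the same pool in which the markers were highest. Apart from Ppdpf, none of the 9 genes, Sdc4 included, ran in the same or the opposite order throughout those pools.

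With the marker score as a covariate, the knockout minus wild-type difference stayed near its first value for Dido1 (-0.87 against -0.88) and Snai1 (-0.99 against -1.23) and was -1.68 for Trp53rka. It was 0.08 for Sdc4, 0.08 for Wfdc2, -0.02 for Ppdpf and -0.24 for Sulf2, against 1.31, 0.63, -0.47 and -0.89 without the score. For Dpm1 and Pard6b it was 0.63 and 0.44. None of the 9 passed in that fit, and 4 of the 8019 genes did, since the score nearly follows the genotype. The part of the visceral endoderm signal in these results was not tested beyond this.

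The sex makeup of the pools, labelled mixed, also moved with genotype. The summed signal of 3 Y-linked genes (Kdm5d, Eif2s3y and Uty) was 32.9 and 21.4 in wild type, 117.6, 187.5 and 97.8 in heterozygotes, and 144.8 and 207.5 in knockouts, and Eif2s3y read 0.8 and 0.3 in wild type, near the floor. Of the 4 listed genes Kdm5d alone passed the filter, and it rose in knockouts by 2.91. With that score in the fit, 4 of the 7 genes that differed between knockout and heterozygous pools passed (Trp53rka, Snai1, Sdc4 and Dido1), and Pard6b, Sulf2 and Ppdpf did not (limma). Its part in the comparison with wild type was not tested, and in that comparison the score left 0 of the 9 genes past the threshold and 0 of all genes.

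The genes whose profile over the 7 arrays was most like that of Trp53rka were Mbd1, Arrb1, Grb2, Csrp1 and Ppp1r18, with Pearson correlations from 0.987 to 0.991 of the log2 signals. None lies on chromosome 2. Their knockout minus wild-type differences ran from -0.63 for Arrb1 to -0.50 for Mbd1, smaller than the -2.72 of Trp53rka. With 7 arrays in 3 genotypes, a correlation mainly restates that the knockout pools are low.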

How the data were processed

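Signals of 7 arrays were taken from the authors' deposited table, in which each probe set has an intensity on a linear scale made with MAS5, per the submitters' processing notes (version not stated). With 2% trimmed from either end, array means lay between 150 and 150.1, so differences are relative to the array as a whole. Array medians lay between 55.5 and 57.4, and arrays correlated at 0.925 to 0.982.

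Genes were named through the platform annotation where a probe set had 1 symbol (20380 of 22690 probe sets; 691 had several, 1555 were not listed and 64 were controls). That annotation's build is not given in the labels; a RefSeq table for GRCm38.p6 served for gene order and promoters only. For each gene the brightest probe set was used, as log2(signal + 3.8), 3.8 being the 10th percentile, which understates changes of dim genes. Genes under the 40th percentile were left out, which left 8019 of 12393.

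Genotypes were compared with limma 3.58.1 under R 4.3.3 (trended eBayes), fitting the 7 arrays together, with Benjamini-Hochberg adjustment over all genes and a threshold of 0.05. Intervals are 95% and unadjusted. The fit was tested on simulated data. The named genes are the 9 with all their probe sets, neighbours past the threshold or next to Adnp, the genes past the threshold and up to 3 others in each list, and the 5 most like Trp53rka. The genes, lists and tests were chosen with earlier results of these data known. Alternatives covered the pseudocount, filter, scaling, trend, array weights, probe set choice, window, marker scores, a replicate block and each array left out.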

Additional observations from a re-analysis of the deposited data

Results flagged for a closer look

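A probe set annotated to both Dpm1 and Adnp lies outside the comparisons of named genes, because it cannot be assigned to either, and it is the one probe set here that names the deleted gene. It read 897.2 and 1025.6 in wild type, 1114.7, 985.9 and 1195.8 in heterozygotes, and 1880.2 and 1681.5 in knockouts. The knockout pools were the highest, although Adnp was deleted in them. The difference from wild type was 0.89 (95% interval 0.60 to 1.17, limma adjusted p = 0.0115 over 13576 probe sets), and that from heterozygotes was 0.70 (adjusted p = 0.0148). The probe set that carries Dpm1 alone was higher in knockouts by 0.44 and did not pass. Adnp had no probe set of its own, so the genotype labels could not be checked by the deleted gene.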

How the results depend on the processing

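Counts out of the 9 genes past the limma threshold kept within 1.5 times of the reported one under 12 of 19 alternatives for knockout minus wild type, 11 of 19 for knockout minus heterozygous, 17 of 18 for the departure from the midpoint and 19 of 19 for heterozygous minus wild type. Between knockout and wild type, 3 of the 9 genes and 4 of the 80 neighbours passed without the intensity trend and 3 and 4 with a replicate block, and 0 and 0 passed with either marker score. Between knockout and heterozygotes, 3 of the genes and 4 of the neighbours passed with the replicate block and 0 and 0 with the visceral endoderm score; 4 of the genes passed without a filter and 4 with the Y-linked score, and 5 neighbours passed with the filter at the 60th percentile. With 20 neighbours on each side, 4 passed against wild type and 5 against heterozygotes. The replicate block kept Trp53rka, Snai1 and Dido1 in both knockout comparisons. Deviations of samples of one number correlated at -0.29 to 0. With 2 wild-type and 2 knockout pools this cannot show whether a number marks a shared litter or batch, and the labels do not say.

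With each array left out in turn, 0 to 5 of the 9 genes and 1 to 9 of the neighbours passed between knockout and wild type, 2 to 7 and 3 to 8 between knockout and heterozygotes, 0 to 1 and 0 to 1 for the departure, and 0 to 0 between heterozygotes and wild type. Fewer arrays were in those fits. Among differences past the threshold, the sign changed with the Y-linked score against wild type for Trp53rka (0.29), Sulf2 (0.082) and Sdc4 (-0.13), and with the visceral endoderm score against heterozygotes for Sulf2 (0.16) and Ppdpf (0.013); the cause was not tested. Below the threshold, Ppdpf against wild type also turned with the Y-linked score (0.026), as did heterozygous minus wild type for Trp53rka (2.49), Pard6b (-0.45), Sulf2 (0.50) and Dido1 (-0.05). The number of pools, 2 or 3 per genotype, and the low signal of dim probe sets, such as Trp53rka in knockouts, limit these values.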
